A study of Saccharomyces cerevisiae with 3 samples.

Results

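The 8 genes described here encode the hexose-phosphorylating enzymes of budding yeast and the enzymes that carry glucose 6-phosphate down to the triose phosphates. They are HXK1 (YFR053C), HXK2 (YGL253W), GLK1 (YCL040W), PGI1 (YBR196C), PFK1 (YGR240C), PFK2 (YMR205C), FBA1 (YKL060C) and TPI1 (YDR050C). They were chosen by their open reading frame (ORF) names, and all 8 were found among the 6207 ORF rows of the deposited table, each on 1 row. The list was drawn up with the values of these arrays already known, so the log ratios below are given as a description and are not used as support for a change. Caspofungin-treated Saccharomyces cerevisiae was compared with untreated cells on 2-colour DNA microarrays. Both groups were the strain MID2extWSC1cyt in the BY4741 background, grown in YEPD at 24 °C and split from 1 culture. The treated part received 15 ng/ml caspofungin, an echinocandin drug that blocks synthesis of wall glucan, and both parts were harvested 2 h later. By its name the strain carries a chimera of the extracellular part of the wall sensor Mid2 and the cytoplasmic part of the sensor Wsc1, and the treated and the untreated cells both carry it. The study design had 2 cultures with a dye exchange for each, which makes 4 arrays, and the 3 arrays numbered 1, 2 and 4 were analysed here.

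Glycolysis begins with the trapping of glucose as glucose 6-phosphate. Yeast has 3 enzymes for this step: hexokinase 2, the main form during growth on glucose and also a mediator of glucose repression, and hexokinase 1 and glucokinase, which are expressed more strongly when glucose is scarce. Phosphoglucose isomerase then makes fructose 6-phosphate, phosphofructokinase commits it to glycolysis as fructose 1,6-bisphosphate, aldolase splits that sugar, and triose phosphate isomerase interconverts the products. Glucose 6-phosphate and fructose 6-phosphate are also the starting points for UDP-glucose, the mannose donor GDP-mannose and the chitin precursor UDP-N-acetylglucosamine, from which the cell wall is made. Most of these enzymes are among the abundant proteins of yeast growing on glucose, and many of their genes share the activators Rap1 and Gcr1.

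Each deposited value is the log2 ratio between the RNAs of the treated and untreated cells on 1 array. The RNA of treated cells was labelled with Cy3 on array 1 and with Cy5 on arrays 2 and 4. Neither the labels nor the table say which channel stands on top of the ratio. Array 1 correlated positively with arrays 2 and 4 across genes (Pearson's r = 0.436 over 2818 ORFs and r = 0.394 over 745 ORFs), so it was taken as already turned to the same direction. Signs are those of the deposited scale. Agreement between arrays does not tell which RNA stands on top. Positive means more RNA in caspofungin-treated cells only if treated RNA stands on top of the ratio, which is not known. Since each culture had 1 array per dye orientation, arrays 2 and 4 are from separate cultures, while array 1 shares a culture with array 2 or with array 4. An SD over arrays therefore holds technical as well as culture spread.

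The arrays differed in coverage and width. Array 1 had values for 3748 ORFs, array 2 for 2833 and array 4 for 855, with medians of −0.24, −0.14 and −0.93 and SDs of 0.809, 0.436 and 1.55. Of the ORFs, 723 had a value on every array. The BY4741 strain is of mating type a. Of its marker genes, 3 of 4 had a value on at least 1 array, against 0 of 3 markers of the alpha type. Of all 6207 ORFs, 2335 had no value on any array, so these few markers do not tell the mating type. These are ratios, so the presence of a value is all that the markers can show.

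Upper glycolysis was measured more completely than most of the array. Array 1 had a value for 7 of the 8 genes (87.5%), against 60.4% of all ORFs. Array 2 had 6 of the 8 (75.0%), against 45.6%, and array 4 had 6 of the 8 (75.0%), against 13.8%. This coverage was not particular to upper glycolysis. Arrays 1, 2 and 4 had values for 9, 8 and 8 of 11 genes of lower glycolysis. For ethanol formation they had 6, 5 and 7 of 8 genes. GLK1, PGI1, PFK2 and TPI1 were measured on all 3 arrays, HXK1 and PFK1 on arrays 1 and 2, HXK2 on arrays 1 and 4, and FBA1 on array 4 alone. Of the 19 values, 15 were positive and 4 negative, and the lowest was −0.32. Over all ORFs with a value, 36.1% were positive on array 1, 33.4% on array 2 and 19.1% on array 4. The genes were listed with these values known, so nothing is read from the difference. The genes were spread over a wide range, with 9 values within 0.5 of zero and 7 of at least 1, which is 2-fold.

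**Figure D1:**
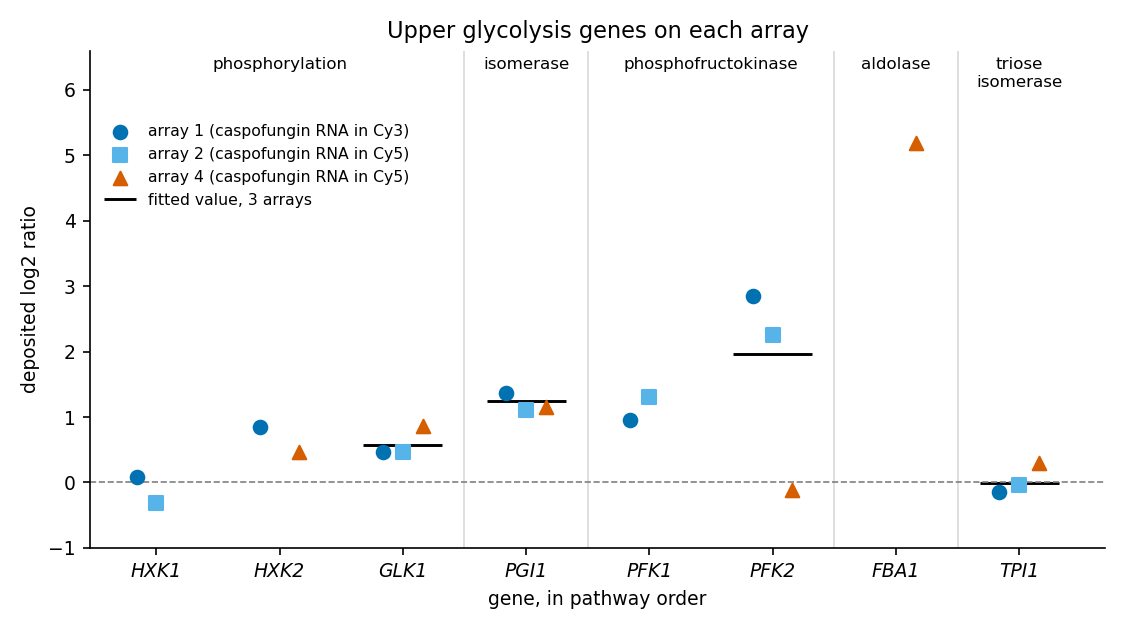
Deposited log2 ratio (vertical axis) of each upper glycolysis gene (horizontal axis, in pathway order) on arrays 1, 2 and 4, with black bars for the fitted value of the 4 genes measured on all 3 arrays. PGI1 sits between 1.10 and 1.37 on every array, PFK2 is above 2.2 on arrays 1 and 2 and at −0.11 on array 4, and the single FBA1 value is 5.19.

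The genes of glucose phosphorylation all had log2 ratios below 1. GLK1, the glucokinase gene, had log2 ratios of 0.47, 0.47 and 0.86 on arrays 1, 2 and 4, a mean of 0.60 ± 0.22 (SD, n = 3 arrays). Its values on arrays 1 and 2, which have opposite dyes, were the same to 2 decimals. HXK2, the main hexokinase on glucose, had 0.85 on array 1 and 0.46 on array 4, a mean of 0.66 ± 0.28 (SD, n = 2 arrays). Both values were positive and correspond to ratios of 1.81 and 1.37. Among the ORFs with a value, GLK1 was at percentile 83.6, 92.6 and 92.2 on arrays 1, 2 and 4. HXK2 was at percentile 92.8 on array 1 and 87.8 on array 4. HXK1, the hexokinase gene that is repressed by glucose, had 0.09 on array 1 and −0.32 on array 2, a mean of −0.11 ± 0.29 (SD, n = 2 arrays), so its sign was not the same on both arrays.

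HXK1 was below the other phosphorylating enzymes wherever a pair shared an array. GLK1 exceeded HXK1 by 0.38 on array 1 and by 0.79 on array 2, and HXK2 exceeded HXK1 by 0.76 on array 1. HXK2 and GLK1 had no set order, since HXK2 was higher by 0.38 on array 1 and the difference was −0.40 on array 4. HXK1 and HXK2 are closely similar copies, so RNA of one can hybridize to the spot of the other. The share of such signal was not tested.

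PGI1, which encodes phosphoglucose isomerase, the enzyme that feeds phosphofructokinase, had the smallest SD among the 4 genes measured on all 3 arrays. It had 1.37, 1.10 and 1.15 on arrays 1, 2 and 4, a mean of 1.20 ± 0.14 (SD, n = 3 arrays), or ratios of 2.58, 2.14 and 2.21. All 3 values were at least 2-fold, and arrays of opposite dye gave nearly the same value. Within each array PGI1 was at percentile 97.4, 98.4 and 94.5 of the ORFs with a value.

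Phosphofructokinase of yeast is an octamer of alpha subunits from PFK1 and beta subunits from PFK2, and it is the main point of allosteric control in the pathway. PFK2 had log2 ratios of 2.85 and 2.25 on arrays 1 and 2, which are ratios of 7.22 and 4.75, and −0.11 on array 4. It ranked 8 of 3748 ORFs on array 1 and 9 of 2833 on array 2, but 181 of 855 on array 4. PFK1 had 0.96 on array 1 and 1.31 on array 2, a mean of 1.13 ± 0.25 (SD, n = 2 arrays), and no value on array 4. Both subunit genes were thus positive on arrays 1 and 2. PFK2 exceeded PFK1 by 1.90 on array 1 and by 0.94 on array 2, with no test of that difference. The SD of PFK2 over the 3 arrays was 1.57 around a mean of 1.66, and array 4 alone differed from the other values by 2.36 or more.

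FBA1, the gene of fructose 1,6-bisphosphate aldolase, had a single value, 5.19 on array 4, a ratio of 36.6. This was the highest of the 855 values of that array, and the next was 4.76, for TDH3 of glyceraldehyde 3-phosphate dehydrogenase. FBA1 was 1 of 109 ORFs with a value on array 4 and on neither of the others, and 8 of those 109 were positive and at least 2-fold. With 1 array there is no replicate of this value. Array 4 also had the widest spread of values, with an SD of 1.55.

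TPI1, the gene of triose phosphate isomerase, stayed near zero. It had −0.14, −0.04 and 0.30 on arrays 1, 2 and 4, a mean of 0.04 ± 0.23 (SD, n = 3 arrays), so the mean was smaller than the spread. On the array both genes shared, FBA1 exceeded TPI1 by 4.89, although the enzymes act one after the other. PGI1 exceeded TPI1 on every array, by 1.51, 1.14 and 0.85 on arrays 1, 2 and 4.

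**Figure D2:**
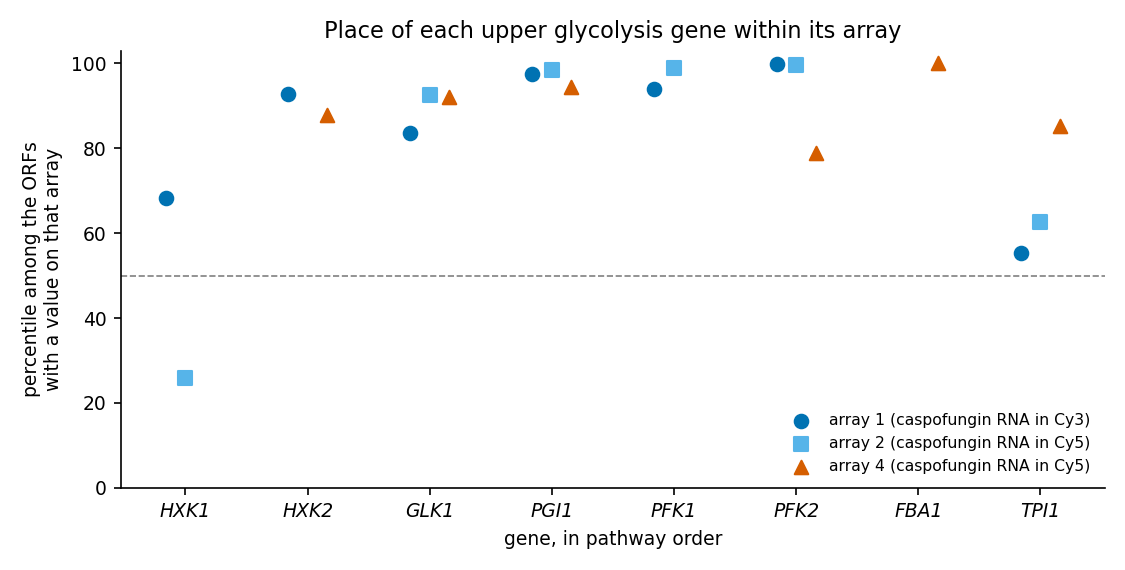
Percentile of each gene (vertical axis) among the ORFs with a value on the same array, for arrays 1, 2 and 4, with genes on the horizontal axis in pathway order and a dashed line at the array median. All values except that of HXK1 on array 2 (percentile 26.0) lie above the median of their array.

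Because the array medians were below zero, a value near zero still stood in the upper part of an array. TPI1 was at percentile 55.4, 62.6 and 85.4 on arrays 1, 2 and 4, and HXK1 was at percentile 68.3 on array 1 and 26.0 on array 2. In all, 7 of 7 measured genes were above the array median on array 1, 5 of 6 on array 2 and 6 of 6 on array 4. Values of at least 2-fold and positive were found for 2 of 7 genes on array 1 (PFK2 and PGI1), 3 of 6 on array 2 (PFK2, PFK1 and PGI1) and 2 of 6 on array 4 (FBA1 and PGI1). The background shares of such values were 5.47% of ORFs on array 1, 2.12% on array 2 and 6.67% on array 4. These ratios are the ones known when the genes were listed, so nothing is read from their excess over the background.

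The 3 arrays were combined in a limma fit, with 1 term for caspofungin and 1 for the dye, over the 723 ORFs measured on all of them, which includes 4 of the 8 genes. The fitted values were 1.96 for PFK2, 1.24 for PGI1, 0.57 for GLK1 and −0.01 for TPI1, each with an SE of 0.73. Their median was 0.91, beside −0.36 over all ORFs tested. Neighbours in this order differed by 0.57 to 0.72, less than the SE of 1.03 for a difference between genes. That SE takes genes as independent although they were read on the same arrays, so it does not settle the order. PGI1 was above GLK1, and GLK1 above TPI1, on each of the 3 arrays. PFK2 was the highest of the 4 on arrays 1 and 2 and the lowest on array 4. The order was not tested. The 4 genes gave 0 calls at a Benjamini-Hochberg adjusted p under 0.05, against a background of 0.277% of ORFs called (2 of 723). At an unadjusted p under 0.05 there were 23 ORFs, and 1 of the 4 genes, PFK2. Without array 4, 25 of 2818 ORFs were called, PFK2 among them at 2.55 (limma adjusted p = 0.00343), a value that the choice of the gene had already used. Of the 4, PGI1 alone combined a fitted value past 2-fold with 1 sign on all arrays, which 2.77% of ORFs met in the positive direction. GLK1 and PGI1 were positive on every array, as were 7.61% of ORFs.

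The reading of array 1 changes the sign of the fitted values of PFK2, PGI1 and TPI1, while GLK1 is positive under both readings. With array 1 turned the other way, PFK2 was at −0.89, PGI1 at −0.12, GLK1 at 0.10 and TPI1 at 0.14. Arrays 2 and 4, which run the same way whichever reading holds, gave means of 1.12 for PGI1, 1.07 for PFK2, 0.66 for GLK1 and 0.13 for TPI1. PGI1 and GLK1 were positive on both of these arrays.

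The dye term of the fit is the mean of arrays 2 and 4 minus array 1, divided by 2. It is the same quantity as the fitted value with array 1 turned the other way, so its values repeat those above. It is thus no independent check on a dye effect. It was −0.89 for PFK2, −0.12 for PGI1, 0.10 for GLK1 and 0.14 for TPI1 (SE 0.73 each; limma adjusted p = 0.998 for each). The dye term called 0 of 723 ORFs (0%), with 4 at an unadjusted p under 0.05. The size of the dye term of PFK2 was at percentile 94.6 of all ORFs tested, and those of the other genes were between percentiles 18.7 and 27.4. Only array 1 had treated RNA in Cy3, so the term cannot be told apart from other differences between arrays. For PFK2, arrays 1 and 2, of opposite dye, gave 2.85 and 2.25, while array 4, of the same dye as array 2, gave −0.11. For genes measured on arrays 1 and 2, the median difference between these arrays was 0.31 in size over 6 upper glycolysis genes, beside 0.39 over 2818 ORFs.

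**Figure D3:**
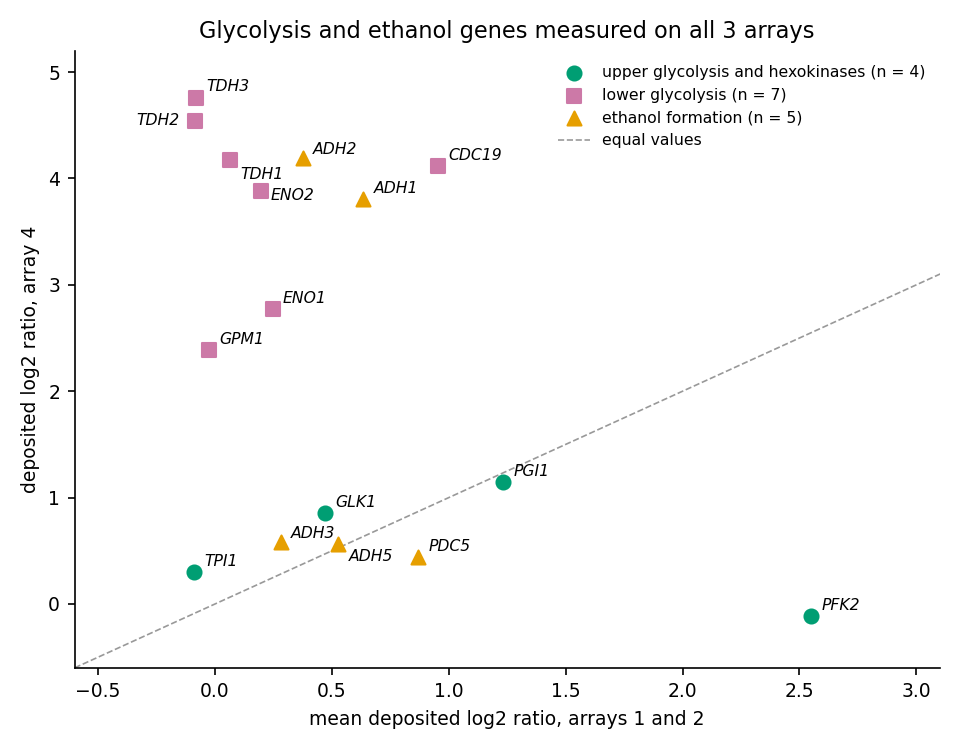
Log2 ratio on array 4 (vertical axis) against the mean of arrays 1 and 2 (horizontal axis) for the genes of upper glycolysis (4), lower glycolysis (7) and ethanol formation (5) measured on all 3 arrays, with a dashed line of equal values. The lower glycolysis genes lie at 2.39 or more on array 4, while PGI1, GLK1 and TPI1 lie close to the line and PFK2 lies far below it.

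Lower glycolysis had another pattern over the arrays. Of 11 lower glycolysis genes, 7 were measured on all 3 arrays, and 7 of these 7 were higher on array 4 than on both other arrays. The same held for 2 of 4 upper glycolysis genes, 4 of 5 genes of ethanol formation and 111 of all 723 ORFs (15.4%). FBA1, with its high value on array 4 alone, is not among the 4. The median difference between array 4 and the mean of arrays 1 and 2 was 3.68 in lower glycolysis, 0.15 in the 4 upper glycolysis genes and −0.86 over all 723 ORFs. In ethanol formation it was 0.30 over 5 genes, from −0.43 for PDC5 to 3.82 for ADH2. Among the 20 highest values of array 4 were 8 lower glycolysis genes, 3 genes of ethanol formation and, from upper glycolysis, FBA1 alone. On arrays 1 and 2 none of the lower glycolysis or ethanol genes was among the 20 highest, whereas PFK2 was on both. The difference between these gene groups was not tested.

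Fitted values in lower glycolysis ran from 0.66 for GPM1, phosphoglycerate mutase, to 1.82 for CDC19, pyruvate kinase, with a median of 1.11 over 7 genes. These values rested on array 4: the means of arrays 1 and 2 were −0.03 for GPM1 and 0.95 for CDC19, and the medians of the measured lower glycolysis genes were 0.25 on array 1, 0.14 on array 2 and 4.00 on array 4. The 3 TDH genes resemble each other closely in sequence, as do the ENO genes, and each spot may bind RNA of its relatives. In ethanol formation, 5 of 8 genes were measured on all 3 arrays, from 0.37 for ADH3, the mitochondrial alcohol dehydrogenase, to 1.46 for ADH1, the main fermentative one, with a median of 0.81. For ADH1 the mean of arrays 1 and 2 was 0.63, and for ADH3 it was 0.28. PGK1, phosphoglycerate kinase, and PDC1, the main pyruvate decarboxylase, resembled FBA1 in coverage, with a value on array 4 alone (2.96 and 4.22). So did PDC6, at 0.95. ZWF1, RKI1, SEC53, GPD1 and HXT2 of the lists below were also on array 4 alone, at −2.69 to −0.24. The median of the 109 ORFs measured on array 4 alone was −1.12. The limma fit called 0 genes of lower glycolysis or ethanol formation in either direction.

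Genes around the upper steps were mostly close to zero or poorly measured. EMI2, a paralogue of glucokinase, had 0.16 and 0.10 on arrays 1 and 2. YLR446W (NGK1), a hexokinase-like gene, had −1.34 on array 1 alone. PFK26 and PFK27, whose products make fructose 2,6-bisphosphate, the activator of phosphofructokinase, had 0.54 and 0.55 on array 1, and PFK27 had −0.23 on array 2. FBP1 and FBP26, for the phosphatases that act on fructose 1,6-bisphosphate and fructose 2,6-bisphosphate, had no value on the 3 arrays.

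The branches that leave the hexose phosphates were followed through fixed lists. In the pentose phosphate pathway, 5 of 11 genes were on all 3 arrays, with 3 above and 2 below zero and a median of 0.27, from −0.98 for SOL3, a 6-phosphogluconolactonase, to 0.94 for TKL1, transketolase. TKL1 had 1.16, 1.09 and 0.36 on arrays 1, 2 and 4. Of 9 genes that lead from glucose 6-phosphate to UDP-glucose, trehalose and glycogen, 2 were on all arrays, UGP1 at 0.06 and TPS1 at 0.04. On array 1 all 7 measured genes of this branch were positive, with a median of 0.41, beside 36.1% of all ORFs with a value. On array 4 both measured ones were negative, UGP1 at −0.73 and TPS1 at −0.38. On that array 19.1% of all ORFs with a value were positive, and the median was −0.93. Of 7 genes that lead from fructose 6-phosphate to chitin and mannan precursors, PSA1, the GDP-mannose pyrophosphorylase gene, was the only one on all arrays, at 0.41. GFA1, which opens the chitin branch, had no value.

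Of 4 genes from dihydroxyacetone phosphate to glycerol, 3 were on all arrays, with 1 above and 2 below zero and a median of −0.19, from −0.29 for GPD2 to 0.22 for GPP1. GPD2, a glycerol 3-phosphate dehydrogenase gene, had 0.90 and 0.34 on arrays 1 and 2 and −3.31 on array 4, so its sign turned between arrays. Of 9 hexose transporter and sensor genes, 4 were on all arrays, with 2 above and 2 below zero and a median of −0.03, from −0.65 for HXT6 to 0.13 for HXT1. Among 12 regulators of glycolytic genes only REB1 was on all arrays, at −0.68. GCR1 and RAP1, which encode activators of many glycolytic genes, had no value. None of these genes was called in either direction.

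The ORFs nearest in pattern were found by the Euclidean distance between their values on the 3 arrays and the median profile of the 4 genes, which was 0.92, 0.79 and 0.58 on arrays 1, 2 and 4. They were ASN2, an asparagine synthetase (distance 0.20), PDC5, a pyruvate decarboxylase (0.25), SSC1, the mitochondrial Hsp70 (0.25), PRC1, vacuolar carboxypeptidase Y (0.34) and DED81, asparaginyl-tRNA synthetase (0.42). The median distance over the other ORFs measured on all 3 arrays was 2.22. The 4 genes themselves were 0.61 to 2.52 from their own median profile, so that profile describes no single one of them closely. With 3 arrays, a small distance is a description only.

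**Figure D4:**
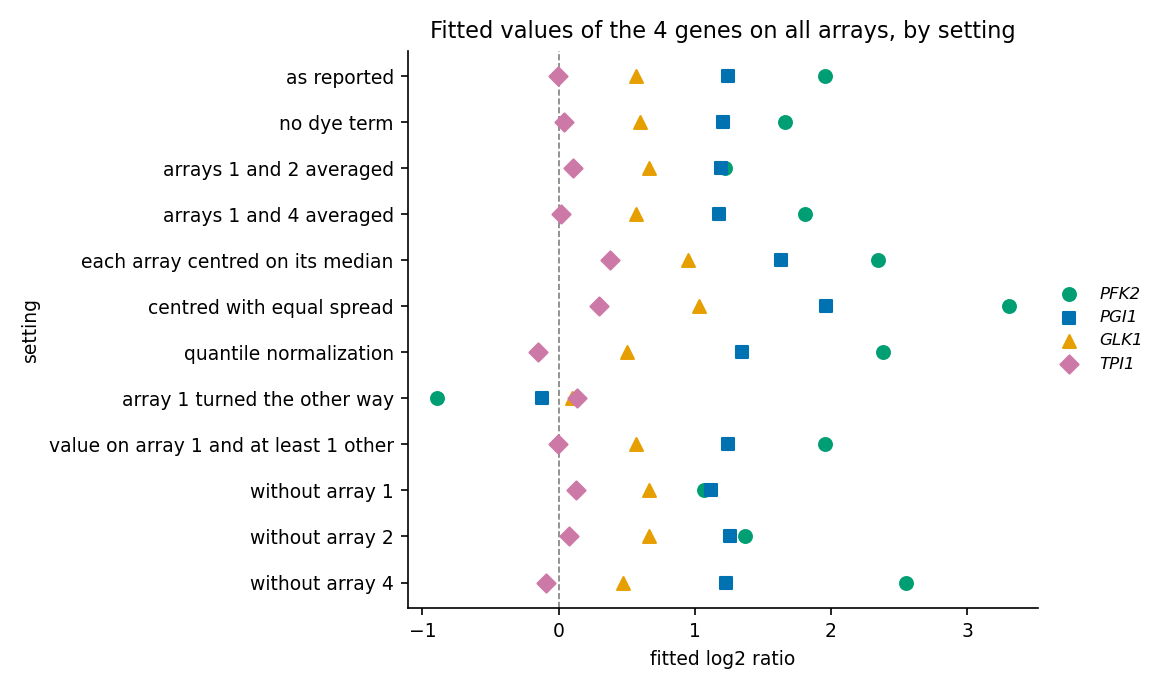
Fitted log2 ratio (horizontal axis) of PFK2, PGI1, GLK1 and TPI1 under each setting of the processing (vertical axis). PGI1 lies between 1.12 and 1.96 in all settings except with array 1 turned the other way, while PFK2 ranges from −0.89 to 3.31.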

How the data were processed

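The authors deposited 1 value per ORF and array, read here as log2 ratios: back on the linear scale, 100% of values fell on steps of 0.0001 (tolerance 0.01 of a step), against at most 2.52% with other bases or the sign turned. Scanner, background correction, normalization, centring and ratio direction were not given in the sources used here, and the array medians were not 0. Their depth is unknown, and the number of arrays limits precision. The genes and lists were chosen with earlier results of these data known. ORF names were set against the RefSeq gene table of assembly R64, used for names only. The limma fit (limma 3.58.1, R 4.3.3) had 1 residual degree of freedom per ORF and an infinite prior, hence 1 SE for all. Its code was tested on simulated data with independent noise of equal size on each array. That test says nothing about precision on these arrays. Named were the 8 genes, the highest and lowest fitted gene of each other list and the 5 nearest patterns; other genes were named after their values were seen. Alternatives changed the dye term, averaging, centring, scaling, filter, direction of array 1 and the arrays used.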

Additional observations from a re-analysis of the deposited data

How the results depend on the processing

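The median fitted value of the upper glycolysis genes was 0.91 and stayed between 0.87 and 0.93 without the dye term, with arrays 1 and 2 or 1 and 4 averaged, and after quantile normalization. It was 1.29 after median centring (median of all ORFs 0.03), 1.498 when spreads were also equalized, 0.66 over 7 genes with the looser filter of array 1 and at least 1 other, 0.66 to 0.87 without 1 array, and −0.013 when array 1 was turned. TPI1, at −0.01, became positive without the dye term (0.039), when arrays 1 and 2 were averaged (0.10) or 1 and 4 (0.0196), after centring (0.38), with spreads equalized (0.30) and when array 1 was turned (0.14), and ranged from −0.091 to 0.13 without 1 array. PGI1 and PFK2 became negative when array 1 was turned (−0.12 and −0.89).

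The 2 ORFs called became 12 when arrays 1 and 4 were averaged, 25 among 2818 ORFs without array 4, and 23 at an unadjusted p. The count was 0 in every other setting tried, which includes leaving out array 1 or array 2 (range 0 to 25 without 1 array). PFK2 was called when arrays 1 and 4 were averaged (limma adjusted p = 0.0247) and without array 4 (limma adjusted p = 0.00343), and its adjusted p over all settings reached 0.999. Its values had been seen when it was listed. The dye term called 2 ORFs when array 1 was turned, where the terms exchange, and 1 with the looser filter. The count of 1 gene of at least 2-fold and 1 sign, PGI1, stood beside 13.1% of all ORFs tested, counting both directions. It became 2 when arrays 1 and 4 were averaged (11.1%), after centring (8.44%), after quantile normalization (19.2%) and with the looser filter (6.27%). It was 3 when spreads were equalized (8.99%) and 0 when array 1 was turned (1.80%). It was 1 without array 1 (27.1%), 1 without array 2 (34.2%) and 3 of 6 without array 4 (3.69%). Apart from the turning of array 1, the cause of these moves was not tested. Each array holds treated and untreated RNA of 1 culture, so its log ratio is already a paired value. Array 1 shares a culture with array 2 or array 4, and the fit had no term for culture. Its SE and p-values therefore treat arrays of 1 culture as independent. The settings that average arrays 1 and 2, or 1 and 4, count them as 1 culture.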
